A study of Mus musculus with 25 samples.

Results

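Strand-specific read counts were used to describe the genes that collect most of their counts from the wrong strand in mouse macrophages. A gene was taken as a member if its antisense counts, summed over the 21 bone marrow-derived macrophage (BMDM) libraries, were at least 60 and exceeded its summed sense counts. This gave 414 members among the 24411 genes of the count tables. A count is antisense when the read lies over the exons of a gene but comes from the opposite DNA strand. The BMDM were grown from C57BL/6 bone marrow with M-CSF, and all BMDM groups share this preparation. The BMDM groups had 3 libraries each: control cultured for 4 h, IFN-γ at 100 U/ml with LPS at 100 ng/ml (IFN-LPS) for 1, 4, 12 or 24 h, IL-4 at 10 ng/ml for 12 h, and IL-13 at 10 ng/ml for 12 h. The study calls the IFN-LPS cells IFN-γ-primed, that is pretreated with IFN-γ before LPS, and gives no length of priming. The hours may therefore count from LPS, after an earlier exposure to IFN-γ. The control was labelled with a single culture time of 4 h, so treatment and culture time cannot be told apart at the other times. RAW264.7, a mouse macrophage-like tumour line, was measured as a control and after LPS at 100 ng/ml for 4 h without IFN-γ, with 2 libraries each. The study describes the BMDM libraries as biological triplicates made from independent RNA. The sources used here do not say whether replicates came from separate mice or cultures, so the p-values measure only the spread between these RNA samples.

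In mammalian genomes many gene pairs lie on opposite strands with overlapping exons, most often where their ends meet. When their 3' ends meet the pair is called tail to tail, and when their 5' ends meet it is head to head. Some of the transcripts read from the strand opposite a gene, called natural antisense transcripts, are known regulators, such as Tsix opposite Xist, while many have no known role. In a directional library each read keeps the strand of its RNA, so a read of a neighbouring transcript falls in the antisense column of the gene it crosses. The antisense column of a gene therefore holds reads of RNA made from the other strand, and most sentences here name the neighbour on that strand. The neighbour was set by rule as the counted gene on the opposite strand that shares the most exon bases with the member, or else overlaps its span, or else lies nearest within 10 kb.

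Among the members were 11 microRNA hairpin genes, short genes that often lie inside or opposite a longer transcript. Their counts are reads of the strand opposite the annotated hairpin. The mature sequences of 10 of them were found in RefSeq (GRCm38.p6), and the 11 sequences carried 11 distinct seeds. The 3 microRNA members with the most antisense counts follow, then the 2 members that lie opposite another microRNA, each with its partner, since these pairs show the strand relation base by base. Capitals mark the seed, bases 2 to 8.
mmu-miR-6381: cAGGAUGCuggugacaugagu
mmu-miR-1198-5p: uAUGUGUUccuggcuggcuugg
mmu-miR-6244: gGGGGCGUggaauuaucgggu
mmu-miR-142b: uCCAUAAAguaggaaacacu
mmu-miR-142a-3p: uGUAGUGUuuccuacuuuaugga
mmu-miR-3074-5p: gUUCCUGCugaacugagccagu
mmu-miR-24-3p: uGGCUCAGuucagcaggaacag
All 20 bases of miR-142b are complementary to an unbroken run in miR-142a-3p, and 20 of the 22 bases of miR-3074-5p are complementary to miR-24-3p. Mir142b (chromosome 11, 87756841 to 87756955, minus strand) had 108 antisense and 0 sense counts in BMDM, so all its counts were on the Mir142 strand. Mir3074-1 (chromosome 13, 63301199 to 63301283, minus strand) had 211 antisense counts and 1 sense count, all but that 1 on the Mir24-1 strand. Its neighbour by the rule above was the longer gene 2010111I01Rik on that strand, which shares 85 exon bases with it. In BMDM 2010111I01Rik had 6457 sense counts and Mir24-1 had 0. By the positions used here, Mir24-1 (63301208 to 63301275) lies wholly within those shared bases, on the same strand as 2010111I01Rik. A read over exons of both genes is counted for neither, so the 0 cannot show which of them gave the reads.

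The members are few but hold much of the antisense signal. They held 228359 antisense counts, 48.9% of all antisense counts of the 21 BMDM libraries, and the 12 highest members held 35.6% of that sum. The median member had 197 antisense counts, 96 members had under 100 and 47 had over 1000. Sense counts were low, with 71 members at 0 and 218 at 10 or fewer over the 21 libraries, and antisense counts made up a median of 96.7% of a member's counts. The members were chosen by these antisense and sense sums, which are given as a description. Just inside the minimum lay Xrcc3, Pdzd2 and Raver2 with 60 antisense counts, and just outside Slc10a1 and Angptl6 with 59. Just inside the strand rule lay B3gntl1 with 160 antisense and 159 sense counts, and just outside Ccdc84 with 263 and 267.

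**Figure D1:**
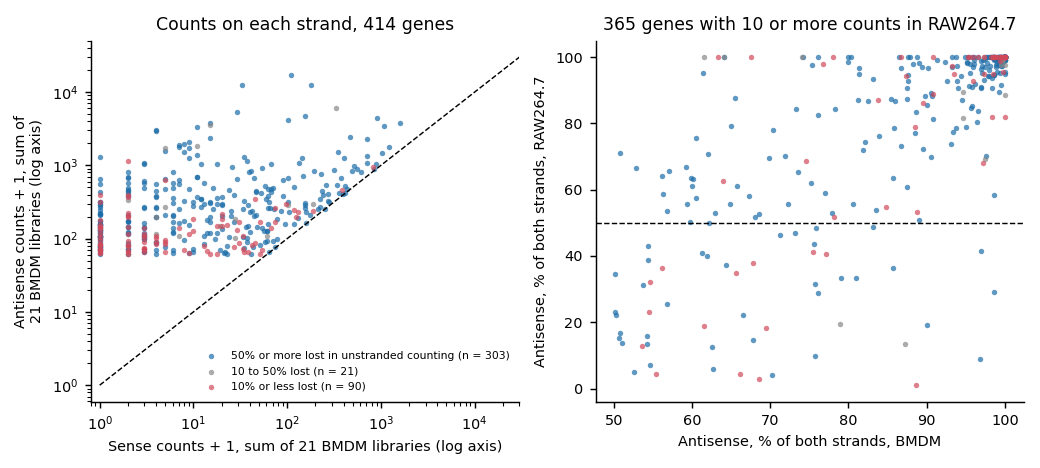
Left, antisense against sense counts plus 1 of the 414 members summed over the 21 BMDM libraries (log axes), with the line of equal counts and colours for the share of antisense counts lost in unstranded counting. Right, the antisense percentage of both strands in BMDM and in RAW264.7 for the 365 members with at least 10 counts there, with a line at 50%, above which 311 of them lie.

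Total sense counts on genes ran from 2378639 to 3357300 per BMDM library, and antisense totals from 16394 to 28995, which is 0.628% to 1.05% of both strands. The members took 8666 to 15705 antisense counts per BMDM library. In the 4 RAW264.7 libraries the antisense totals were 26547 to 30303. At this depth a member near the minimum has about 3 antisense counts per library, and fold changes of such members carry wide errors. Antisense counts of Rn45s, the ribosomal RNA precursor, were 0.0386% to 0.122% of its counts in the 12 control, 1 h, 4 h and 12 h libraries and 0.00603% to 0.0214% in the other 9 BMDM libraries, those after 24 h of IFN-LPS or after a type 2 cytokine. The part of this difference in the comparisons that cross these sets was not tested. All 8 macrophage markers were present in BMDM, with a summed sense level of 10240 to 23270 CPM, counts per 1000000 normalised sense counts. Of the other cell types listed, fibroblast markers summed to 15.1 to 57.2 CPM in BMDM, neutrophil markers to 6.21 to 25.9, T cell markers to 1.38 to 9.43 with all but Cd4 at 0, dendritic cell markers to 1.47 or less, B cell markers to 1.16 or less, and erythroid markers were at 0. In bulk RNA, fewer cells of a type and less RNA per cell cannot be told apart.

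Most members share exons with a counted gene on the other strand. Of the 403 members placed on the GENCODE annotation, 341 (84.6%) did so, against 3631 of all 24002 placed genes (15.1%). Of all members, 347 had such a partner, 300 with 1 partner gene and 47 with more. Over all members with a neighbour by the rule, exons shared or not, 233 were tail to tail with it and 74 head to head. Another 65 lay inside the neighbour and 19 held the neighbour inside them. Protein-coding genes made up 63.7% of members against 85.4% of all genes, and genes of the antisense class 21% against 2.23%. Symbols of the Rik type made up 22.2% against 7.88%, and symbols ending in os or as 4.83% against 0.95%.

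The deposited tables also hold an unstranded count, and it separates the members into classes. Without strand, a read that crosses exons of genes on both strands is ambiguous and is counted for neither gene. The share of a member's antisense counts missing from its unstranded count was at least 50% for 303 members, here called the shared-exon class, which held 86.8% of the members' antisense counts. It was at most 10% for 90 members, here called the free class, which held 6.31%. The remaining 21 members lay between. The value can pass 100%, as sense reads are lost too, and it was 125% for Zeb2os. Of the shared-exon class, 290 of 303 share exons with a counted gene in GENCODE. Of the free class, 37 of 90 do, another 18 overlap the span of an opposite gene, 22 have one within 10 kb and 13 have none. The free class was 87.8% protein coding, against 55.9% of the shared-exon class, and its median antisense sum was 105 against 259.

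Antisense counts of the shared-exon class amounted to a median of 15.7% of the neighbour's sense counts (quartiles 7.85% and 31.0%, 287 members), and those of the free class to 5.46% (2.07% and 17.7%, 70 members), counting only neighbours with at least 60 sense counts in BMDM. In 3 of these 287 shared-exon members the antisense counts exceeded the neighbour's own sense counts. These were Ccdc167 at 759% of Cmtr1, C530005A16Rik at 455% of Ccdc17, and Mir142b at 161% of Mir142. Each value compares the member with 1 opposite gene only. C530005A16Rik also shares 214 exon bases with Gpbp1l1, which had 4076 sense counts against 146 for Ccdc17. Ccdc167 also shares 2333 exon bases with Rnf8-cmtr1, whose span overlaps Cmtr1 on the same strand. Reads over exons of both these genes are counted for neither, and the part of this in the excess was not tested. Over the 21 BMDM libraries, the median Pearson r between a member's antisense level and its neighbour's sense level was 0.848 for 166 shared-exon members and 0.483 for 15 free members. These are descriptions: member and neighbour share libraries, depth and, through the overlap, the same transcripts, and the free members with enough counts are few.

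Antisense levels are given on the same scale, as antisense counts per 1000000 normalised sense counts (CPM). The member with the most counts was Gm14023 (chromosome 2, 129297370 to 129307826, plus strand), a processed transcript that meets the gene of the cytokine IL-1α, Il1a, tail to tail and shares 222 exon bases with it. Its antisense level was 0.367, 0 and 1.1 CPM in the control libraries, 299, 315 and 360 at 1 h, 1075, 1223 and 1138 at 4 h, 651, 604 and 601 at 12 h, and 310, 448 and 437 at 24 h of IFN-LPS. The level was near 0 in every control, IL-4 and IL-13 library, where it stayed at or under 1.58 CPM, and no treated library of the time course overlapped them. Sense counts of Il1a went from 0.374 to 1.47 CPM in control to 4014, 5101 and 4570 CPM at 4 h. The fitted log2 fold change of Gm14023 antisense counts was 9.22 ± 0.27 (SE, n = 3 against 3) at 1 h and 11.07 ± 0.25 at 4 h (adjusted p = 9.04e-136, edgeR quasi-likelihood test). Here and below, SE is the absolute log2 fold change divided by the square root of the test's F statistic. Where a group is near 0, as the controls are here, this SE can fall short of the counting error.

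Tctn1 (chromosome 5, 122237848 to 122264460, minus strand), a gene of the ciliary transition zone, came next with 12662 antisense and 177 sense counts. It meets Hvcn1, the voltage-gated proton channel of phagocytes, tail to tail with 1574 shared exon bases. The level was 143, 139 and 130 CPM in control, 333, 310 and 332 with IL-4, and 392, 345 and 315 with IL-13. All libraries of both cytokines lay above all controls, and the antisense counts stayed between 55.0% and 60.4% of the Hvcn1 sense counts in every BMDM condition. In RAW264.7, where Hvcn1 was at or under 0.954 CPM, Tctn1 had 7 antisense counts over 4 libraries.

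The third member, AV051173, is a long non-coding RNA head to head with Prdx1, a peroxiredoxin that removes hydrogen peroxide. In antisense counts it had 158, 139 and 121 CPM in control and 484, 503 and 526 at 24 h, a log2 fold change of 1.89 ± 0.13 that passed the test. The sense level of Prdx1 went from 910, 920 and 805 CPM to 2823, 3267 and 3235 CPM, also a called rise (log2 1.85). At 12 h the AV051173 value was 1.36, under the fold limit.

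Others of the leading members lie opposite genes of the lysosome. Ddb2, a DNA damage-binding protein, meets the lysosomal acid phosphatase Acp2, and its antisense level was 35.2, 52.7 and 35.8 CPM in control, 148, 146 and 169 at 12 h and 143, 182 and 151 at 24 h. Both late times lay clear of the controls and were called (log2 1.92 ± 0.14 and 1.98 ± 0.14), as was Acp2 (2.03 and 2.19). Tmem132a meets Slc15a3, a lysosomal peptide and histidine transporter, and had 77.7, 75.2 and 78.6 CPM in control and 154, 146 and 148 at 12 h. The log2 value of Tmem132a at 12 h was 0.97 and that of Slc15a3 was 1.90.

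Fdft1, squalene synthase of the cholesterol pathway, meets the lysosomal protease cathepsin B (Ctsb) and moved apart from it. Antisense counts of Fdft1 were 116, 116 and 115 CPM in control, 37.3, 33.1 and 24.5 at 12 h and 21.3, 18.5 and 18.5 at 24 h. The fall was called at both times (log2 -1.85 ± 0.15 and -2.54 ± 0.16). Ctsb differed by -0.49 and -0.84, which is not past the fold limit, so the antisense counts went from 0.876% to 0.269% of the Ctsb sense counts. In RAW264.7 the strands of Fdft1 were turned, with 43 antisense and 977 sense counts.

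Other members of the 12 highest mostly tracked a neighbour closely. Snx22, a sorting nexin, meets the cyclophilin gene Ppib, and its antisense counts were 64.9% to 66.7% of the Ppib sense counts in all 7 BMDM conditions and 66.5% and 68.0% in RAW264.7. For 3110062M04Rik, opposite Tmem140, the share was 94.4% to 97.4% in BMDM. Sla2, a Src-like adaptor opposite 1110008F13Rik, had 47.3, 40.8 and 35.8 CPM in control and 120, 129 and 169 at 12 h, a called rise of 1.77 ± 0.14. The antisense level of 4930404N11Rik, inside the transporter gene Mfsd12, was 79.9, 80.8 and 82.2 CPM in control and 25.5, 20.8 and 20.3 at 4 h, a called log2 value of -1.84 beside -1.84 for Mfsd12. Krr1, a factor of small ribosomal subunit assembly opposite Glipr1, had 77.7, 94.6 and 85.1 CPM in control and 23.8, 22.2 and 39.7 at 12 h, a called fall of 1.57 on the log2 scale. The called changes of these 3 members leave no overlap between the treated and the control libraries.

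**Figure D2:**
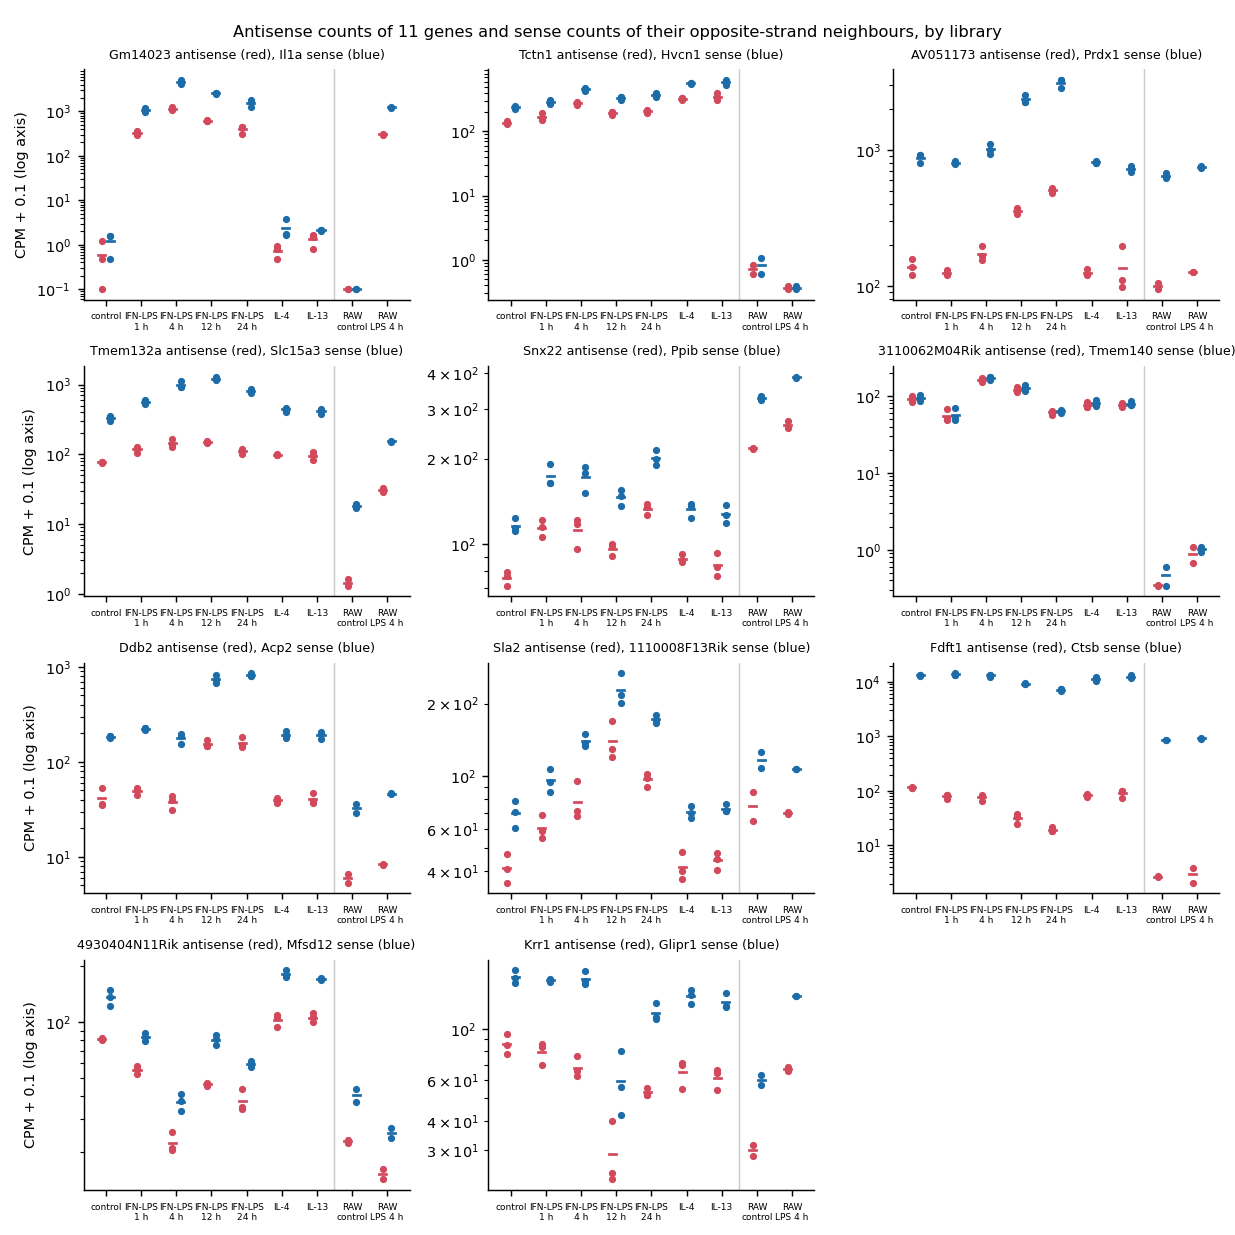
Antisense level of 11 of the 12 members with the most antisense counts (red) and sense level of their neighbours (blue) in CPM plus 0.1 on log axes, with a point per library and a bar for the mean in each of the 9 conditions. Gm14023 lies near 0 in control, IL-4 and IL-13 libraries and between 299 and 1223 CPM in the BMDM IFN-LPS libraries, as Il1a does at a higher level, while Fdft1 falls at 12 and 24 h, when Ctsb differs by -0.49 and -0.84 on the log2 scale.

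The IFN-LPS comparison asks how the members moved over time after activation. Of 266 members with enough counts to test, 23 rose and 5 fell at 1 h, 46 and 17 at 4 h, 40 and 14 at 12 h, and 31 and 15 at 24 h. A member was called when its adjusted p was 0.01 or less and its change reached 1.5 on the log2 scale in either direction. The called members were 10.5%, 23.7%, 20.3% and 17.3% of those tested. Over all 594 genes tested on antisense counts, members included, the called percentages were 15.7, 31.6, 27.8 and 20.7, each above the members' own. Rises took 13.6%, 26.4%, 24.1% and 13% of all genes tested, and falls 2.02%, 5.22%, 3.7% and 7.74%. All 4 times were compared with the same 3 control libraries. Over the 4 times, 93 members were called at least once, 15 rose at all 4 and Ccdc152 fell at all 4. Some of the 15, such as Il1bos and Il7 with 0 control counts, reached the 60-count minimum through IFN-LPS libraries. The rise of such members is partly built into the rule. Over all genes tested on antisense counts, 45.3% were called at least once, 5.72% rose at all 4 and 0.673% fell at all 4.

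A list of 97 macrophage activation genes gives the setting on the sense strand. Of its 93 tested genes, 70, 80, 74 and 71 rose and 1, 7, 6 and 6 fell at 1, 4, 12 and 24 h, against called percentages of 7.04, 22.3, 17.1 and 14.7 over all genes. The list's median log2 fold change was 4.20, 6.40, 5.07 and 4.66, beside 0.01, -0.02, 0.02 and 0.08 over all tested genes. Members lay opposite 5 of its genes: Gm14023 with Il1a, Mir6381 with Gbp2, Zmynd15 with Cxcl16, Psd with Nfkb2 and Il1bos with Il1b. All 5 rose at all 4 times. Mir6381 and Il1bos had 1 and 0 counts over the control libraries, and Gm14023 was near 0 there. These members reached the 60-count minimum through IFN-LPS libraries, so their rise is partly built into the rule.

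Mir6381 (chromosome 3, 142623860 to 142623946, minus strand) lies within Gbp2, an interferon-induced guanylate-binding protein. Its antisense level was 0.367, 0 and 0 CPM in control, 126, 141 and 138 at 1 h, 169, 148 and 146 at 4 h, 124, 121 and 148 at 12 h, and 65.0, 61.1 and 53.6 at 24 h. The control held 1 count in all, which gives a ratio of 1100 (95% counting interval 197 to 43480) at 1 h. Sense counts of Gbp2 rose over the same times, and the antisense counts were 7.52% to 8.99% of them.

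Il1bos (chromosome 2, 129369897 to 129375748, plus strand) lies head to head with Il1b, the gene of IL-1β, and shares 25 exon bases with it. Il1bos antisense counts were 0 in the 3 control libraries, 20.5, 20.6 and 25.1 CPM at 1 h, 10.1, 9.89 and 13.7 at 4 h, 9.12, 12.6 and 5.21 at 12 h, and 7.22, 4.81 and 4.39 at 24 h. It was thus highest at 1 h and clear of the controls at each time. The rise was at least 60.3-fold at 1 h and at least 14.7-fold at 24 h, counted against a floor of 3 counts over the control group. Il1b itself was highest later, with 1565, 1659 and 1986 CPM at 1 h and 4494, 5233 and 5238 at 4 h. The antisense counts were 1.27% of the Il1b sense counts at 1 h and 0.225%, 0.189% and 0.204% at the later times.

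Zmynd15 meets Cxcl16, a scavenger receptor and chemokine, head to head with 552 shared exon bases. Antisense counts of Zmynd15 were 19.8, 15.7 and 16.4 CPM in control, 61.0, 60.8 and 66.7 at 1 h and 89.6, 64.6 and 94.5 at 4 h. The log2 fold changes of 1.85, 2.28, 2.03 and 1.88 from 1 to 24 h stand beside 1.98, 2.47, 2.39 and 1.91 for Cxcl16. Psd, an exchange factor for a small GTPase, meets Nfkb2, the p100/p52 subunit of NF-κB, tail to tail. It had 2.20, 2.62 and 0.731 CPM in control and 22.5, 18.2 and 21.4 at 4 h, and rose by 3.48 ± 0.33 on the log2 scale against 4.90 for Nfkb2. All its IFN-LPS libraries lay above its controls.

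Among the other members called at all 4 times, 5 more lay opposite a gene that was called in the same direction at all 4. Mir6244 lies wholly within an exon of Zc3h12c, and its antisense level went from 2.20, 0.748 and 1.83 CPM to 24.7, 24.6 and 22.7 at 1 h. Its log2 fold change of 3.86 ± 0.32 stands beside 4.06 for Zc3h12c. The others were 1700071M16Rik within Pla2g7, the platelet-activating factor acetylhydrolase, E230013L22Rik head to head with Rab20, 4933416M07Rik within Rab11fip1, and Emc9 opposite Psme1, a proteasome activator subunit. The log2 fold changes of these 4 at 4 h were 2.0, 2.64, 5.03 and 3.19, and those of the neighbours 1.87, 2.48, 5.48 and 2.92. Gtf2ird2 rose at all 4 times too, while its neighbour Ncf1, the p47phox subunit of the NADPH oxidase, was called from 4 h on. The antisense level of Gtf2ird2 was 0.367, 0 and 1.1 CPM in control and 14.7, 12.1 and 12.6 at 1 h, when it was 8.95% of Ncf1, against 0.811% in control and 1.67%, 1.72% and 1.09% at 4, 12 and 24 h.

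The other 4 members that rose at all 4 times had no counted gene on the opposite strand within 10 kb by the positions used here. By its unstranded counts Mir1198 was nevertheless in the shared-exon class, while Tnfrsf8, Il7 and Art2a-ps were in the free class. Whether the authors' annotation holds a counted gene opposite Mir1198 was not tested. Mir1198 (chromosome X, 7807101 to 7807221, plus strand) had 3.67, 3.37 and 1.46 CPM in control, 154, 142 and 183 at 1 h, and 54.7, 56.7 and 70.9 at 24 h, a log2 fold change of 5.79 ± 0.21 at 1 h. Tnfrsf8, the gene of CD30, had 0.367, 0 and 0 CPM in control and 8.50, 6.71 and 9.42 at 1 h. Its control held 1 count, a ratio of 67.8 (95% counting interval 11.7 to 2717). Il7, the cytokine interleukin 7, was at 0 in control and at 5.02, 4.03 and 3.49 CPM at 1 h, at least 11.3-fold higher. An uncounted GENCODE antisense gene, Gm16685, shares 105 exon bases with Il7. Art2a-ps had 0, 0.374 and 0 CPM in control and 4.63, 4.47 and 6.28 at 1 h. None of these 4 had a treated library at its control level.

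Apobr, the apolipoprotein B receptor, passed the strand rule with 952 antisense against 824 sense counts in BMDM. Most of these antisense counts came from the 4 h libraries, so the 4 h peak is partly built into the rule. Apobr rose at 1, 4 and 12 h and peaked at 4 h. Its antisense level was 0.733, 0.748 and 0 CPM in control, 6.95, 6.71 and 9.77 at 1 h, 139, 154 and 141 at 4 h, 9.51, 10.0 and 11.6 at 12 h, and 1.03, 3.09 and 0.293 at 24 h. Its log2 fold change was 8.09 ± 0.29 at 4 h and 1.46 at 24 h, which did not pass the test. The neighbour by rule was Cln3, a lysosomal membrane protein that shares 442 exon bases with it, and Cln3 had a log2 value of 1.18 at 4 h that was not called. Another opposite gene, Il27, the p28 subunit of interleukin 27, shares 103 exon bases with Apobr and was looked at after these values were seen. Il27 was at 0 in control, at 25.1, 22.8 and 34.9 CPM at 1 h, 1734, 1523 and 1453 at 4 h, 132, 126 and 111 at 12 h, and 25.1, 36.8 and 29.6 at 24 h. Both thus had their highest level in the 3 libraries of 4 h, and the antisense counts of Apobr were 27.7%, 29.4% and 28.0% of the Il27 sense counts at 1 h and 8.04%, 10.1% and 9.71% at 4 h.

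The falls were shallower in counts. Ccdc152, tail to tail with the selenoprotein gene Sepp1, had 4.77, 4.86 and 5.11 CPM in control, 1.54, 1.79 and 1.05 at 1 h, and 0.344, 0.343 and 0 at 24 h. Its log2 fold changes were -1.75, -2.63, -3.42 and -4.19 from 1 to 24 h, while those of Sepp1 were -0.39, -0.77, -1.53 and -2.94 with the last 2 called. Card14, a scaffold of NF-κB signalling, meets the lysosomal sulfatase gene Sgsh and had 23.5, 22.4 and 26.3 CPM in control and 2.37, 2.08 and 1.65 at 4 h. It fell by 3.51 on the log2 scale, beside -3.01 for Sgsh. Mast1, a kinase opposite the lysosomal nuclease gene Dnase2a, had 5.87, 5.98 and 5.85 CPM in control and 1.19, 0.521 and 0.549 at 4 h. Its value of -2.89 ± 0.61 was called and the -1.19 of Dnase2a was not.

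Clvs1, opposite the aspartyl hydroxylase gene Asph, fell at 12 and 24 h, with 24.2, 22.4 and 22.7 CPM in control and 2.41, 2.75 and 2.34 at 24 h. The log2 value at 24 h was -3.16 ± 0.28, against -1.93 for Asph. 1700113A16Rik, tail to tail with the transcription factor gene Mef2d, had 3.30, 5.98 and 5.85 CPM in control and 0.593, 0 and 0.549 at 4 h, a called value of -3.58 against -1.83 for Mef2d. Fam196b lies in an intron of Dock2, a haematopoietic Rac activator, and shares no exon bases with it. It had 8.80, 7.48 and 11 CPM in control and 0, 2.08 and 0 at 4 h, a called value of -3.51, while Dock2 had -0.95 and was not called. For each of these 3 members the treated libraries named lay below all controls, as the rule for naming the largest falls required. In all, 93 of the 414 members lay below all controls at 4 h and 99 at 24 h. The share over all genes was not measured, so these counts are not a trait of the members.

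At 1 h the deepest falls were of Lsr, Olfr112 and Bricd5. Lsr, a lipoprotein receptor, had 5.87, 5.98 and 3.29 CPM in control and 0, 0 and 0.698 at 1 h, a value of -4.04 ± 0.70. Its neighbour by rule, Fam187b, was at or under 0.731 CPM in every library, and an uncounted antisense gene, Gm4673, shares 946 exon bases with Lsr. Olfr112, an olfactory receptor gene with no counted neighbour within 10 kb, had 3.67, 4.86 and 4.75 CPM in control and 1.16, 0.895 and 1.05 at 1 h. Bricd5 lies within Mlst8, a subunit of the mTOR complexes, and had 4.40, 4.49 and 5.48 CPM in control and 0.772, 1.79 and 1.05 at 1 h. It fell by 1.99 on the log2 scale and Mlst8 by 1.52, both called at 1 h and at no later time.

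Arhgap15os was the only member called in both directions, chosen for this after its values were seen. It lies within Arhgap15, a Rac GTPase-activating gene, and had 2.57, 1.12 and 2.56 CPM in control, 6.95, 6.26 and 7.68 at 1 h and 0, 0 and 0.401 at 12 h. Its log2 value was 1.72 at 1 h and -3.51 at 12 h, and Arhgap15 had 1.45, which is not past the limit, and -1.77, which is. Tulp2, also chosen after its values were seen, rose at 1 h alone, from 1.47, 1.87 and 1.1 CPM to 12.4, 13.4 and 14.0, a log2 fold change of 3.12 ± 0.38. Its neighbour Dhdh had 14.3, 12.3 and 13.5 CPM in control and 9.27, 11.2 and 9.08 at 1 h.

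Where a called member had a tested neighbour, the neighbour was called in the same direction for 15 of 21 members at 1 h, 38 of 50 at 4 h, 31 of 45 at 12 h and 27 of 35 at 24 h. For the others the neighbour was not called, and none was called in the opposite direction. The neighbour calls overall were 21, 62, 57 and 50 of 368 tested. The median absolute difference between the log2 fold changes of a called member and its neighbour was 0.29, 0.21, 0.31 and 0.40 in the shared-exon class (15, 36, 36 and 28 members) and 1.37, 1.59, 1.46 and 1.05 in the free class (5, 12, 8 and 6 members). The difference between the classes was not tested.

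**Figure D3:**
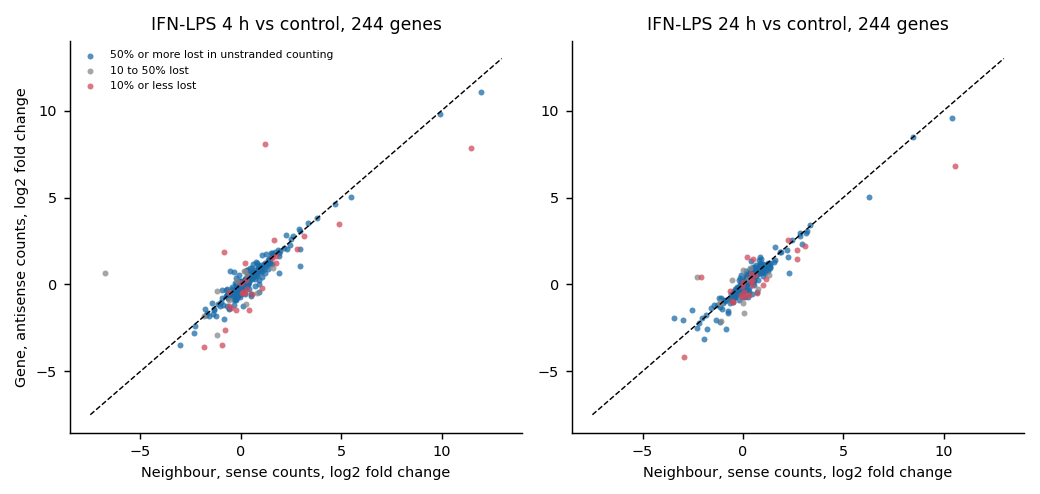
Log2 fold change of a member's antisense counts against that of its neighbour's sense counts at 4 h (left) and 24 h (right) of IFN-LPS, a point per member with both tested, coloured by class, with the line of equal change. Called shared-exon members (blue) lie near the line, with median absolute differences of 0.21 and 0.40, and called free members (red) farther from it, at 1.59 and 1.05.

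The share of the neighbour's sense counts was compared across conditions for the named members. Only conditions in which the neighbour had at least 60 sense counts were used. Of 33 members with the share known in more than 1 such condition, 20 varied by less than 2-fold between their lowest and highest condition and 13 by 2-fold or more, and the median ratio was 1.49. Gm14023 stayed at 24.2% to 30.1% of Il1a over the 4 IFN-LPS times. Tmem132a went from 23.5% of Slc15a3 in control to 12.3% at 12 h, and Clvs1 from 17.9% of Asph to 7.52% at 24 h. With 3 libraries against 3 an exact permutation test cannot reach below p = 0.10, so these shares are given as values.

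**Figure D4:**
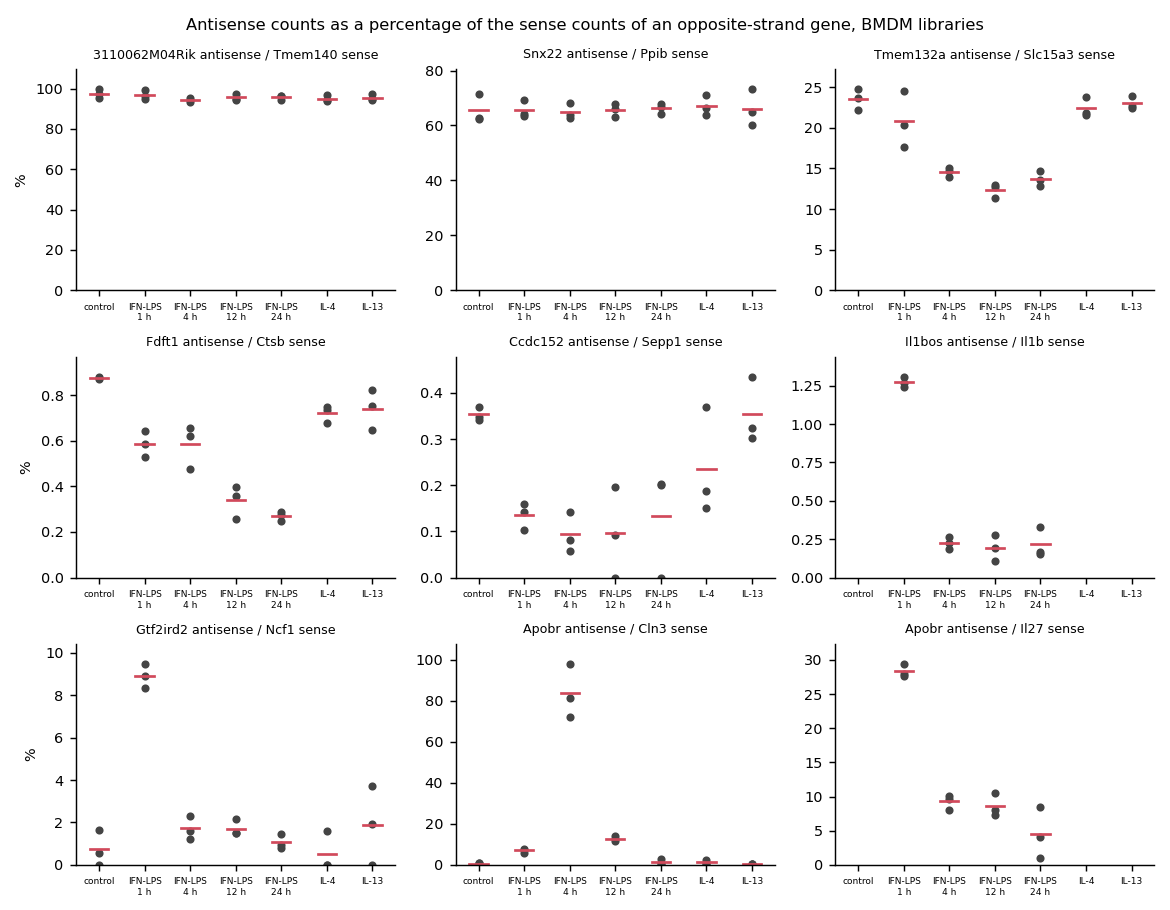
Antisense counts of 8 named members as a percentage of the sense counts of an opposite-strand gene in each BMDM library (points) with the mean (bar), for conditions where the opposite gene had at least 60 counts. Apobr is shown against Cln3 and against Il27. The points of 3110062M04Rik and Snx22 hold level, those of Il1bos and Gtf2ird2 are highest at 1 h, and those of Fdft1 fall from 0.876% in control to 0.269% at 24 h.

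The IL-4 and IL-13 comparisons ask which members moved after 12 h of either cytokine, with a log2 limit of 0.7. Of 220 tested members, 4 rose and 3 fell with IL-4, and 5 rose and 1 fell with IL-13. These are 3.18% and 2.73% of the tested members, against 7.85% and 8.38% of all 382 genes tested on antisense counts. Rises took 2.09% and 2.62% of all genes tested, and falls 5.76% with either cytokine. The 7 IL-4 calls became 4 without IL-4 replicate 1, IL-4 replicate 2 or control replicate 1, 3 without control replicate 3, and 3 with DESeq2 or without the count filter. The IL-4 calls of Nkx6-2, 0610040F04Rik, 1700071M16Rik and Card14 were each lost under 5 to 7 alternatives, while that of Tctn1 was kept under all that were run. Tctn1 rose in both, by 1.24 ± 0.10 and 1.35 ± 0.10 on the log2 scale, and Hvcn1 by 1.24 and 1.28. Nkx6-2, a homeobox gene opposite the inositol phosphatase gene Inpp5a, had 0.367, 0.748 and 0.365 CPM in control, 2.88, 3.43 and 4.06 with IL-4, and 3.95, 4.20 and 5.56 with IL-13. Its log2 fold changes of 2.70 ± 0.68 and 3.11 ± 0.64 stand beside 1.77 and 1.87 for Inpp5a.

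0610040F04Rik lies head to head with Bhlhe40, a basic helix-loop-helix repressor, and had 2.57, 4.49 and 5.85 CPM in control, 9.36, 9.54 and 8.13 with IL-4 and 13, 10.1 and 11.8 with IL-13. It rose by 1.06 and 1.42 on the log2 scale, and fell at 4, 12 and 24 h of IFN-LPS with values of -1.67, -1.75 and -2.06. 1700071M16Rik went the other way. It had 16.9, 15.7 and 21.9 CPM in control, 6.48, 9.54 and 13.4 with IL-4, 7.51, 10.8 and 11.5 with IL-13, and 105, 95.8 and 111 at 24 h of IFN-LPS. Its log2 values were -0.90 and -0.86 with the cytokines, against -0.83 and -0.68 for Pla2g7, the first of which was called. For both genes the cytokine libraries did not overlap the controls, as the rule for naming the largest changes required. Of all 414 members, 348 overlapped the controls with IL-4 and 341 with IL-13, and the share over all genes was not measured.

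Degs2 rose with both cytokines (0.71 and 1.02), 4930549G23Rik with IL-13 (1.27), and Hdgfrp3, opposite Tm6sf1, and Card14 fell with IL-4 (-0.79 and -0.75). Whether the 2 cytokines differ was tested directly. Between IL-13 and IL-4, 0 of 220 members were called by edgeR, with 10 at an unadjusted p under 0.05, and 0 by DESeq2, against 0.262% of all genes. This does not show that the cytokines act alike. The log2 difference of IL-13 from IL-4 was 0.11 ± 0.10 (SE) for Tctn1, 0.36 ± 0.25 for 0610040F04Rik and 0.41 ± 0.43 for Nkx6-2.

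In RAW264.7 the strand balance of the members was mostly kept. Of 365 members with at least 10 counts there, 311 (85.2%) again had more antisense than sense counts, against 586 of 11149 genes (5.26%) overall. These libraries were not used by the rule. In the BMDM conditions, whose libraries the rule summed, 387 to 393 of the 414 had more antisense than sense counts. Among the 54 members that did not were Fdft1, Krr1 with 753 antisense and 801 sense counts, Kif20a, a mitotic kinesin, with 99 and 693, Zbtb32, a transcriptional repressor, with 7 and 692, Mrps25, a mitochondrial ribosomal protein, with 287 and 629, and Dennd2d with 77 and 492.

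After LPS in RAW264.7, 9 of 227 tested members rose and 1 fell past a log2 limit of 2, which is 4.41% against 3.73% of all 510 genes tested on antisense counts (3.14% up and 0.588% down). Without LPS replicate 1 there were 6 calls in place of 10. Gm14023 was at 0 in both controls and at 298 and 304 CPM after LPS, at least 822-fold higher, with Il1a going from 0 to 1255 and 1216 CPM. Il1bos went from 0 in both to 8.77 and 4.94 CPM, at least 18.4-fold higher. Tmem132a went from 1.19 and 1.5 CPM to 32.5 and 28.9, a log2 fold change of 4.48 ± 0.27 against 3.09 for Slc15a3. Each of these 3 had both LPS libraries above both controls, as the rule for naming the largest rises required. In all, 115 of the 414 members did, a count that cannot be weighed because the share over all genes was not measured.

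Mir1198, Mir6244, 4933416M07Rik and Psd, which rose at all 4 IFN-LPS times in BMDM, rose here too, by 2.68, 2.03, 3.28 and 2.64 on the log2 scale. Zcwpw1, opposite the receptor gene Pilra, rose by 2.78, and Xcr1, a chemokine receptor gene with no counted neighbour within 10 kb, by 2.85. Card14 had 2.86 and 3.75 CPM in the controls and 0.283 and 0.741 after LPS, the 1 fall, with a log2 value of -2.57 ± 0.64. The RAW264.7 and BMDM treatments differ in IFN-γ, so the values stand side by side only.

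A list of 21 genes of well-known sense-antisense pairs was linked to 4 members, none of which was called in any comparison. Tsix (chromosome X, 103431517 to 103484957, plus strand), the antisense regulator of the X-inactivation RNA Xist, had 1320 antisense and 0 sense counts. The level at Tsix was 29.7, 25.8 and 28.1 CPM in control and 21.3, 19.9 and 19.0 at 24 h, its counts were 13.8% to 15.4% of Xist in every BMDM condition, and both strands were at 0 in RAW264.7. All counts at Tsix thus lay on the Xist strand.

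Zeb2os, inside the gene of the transcription factor Zeb2, had 1489 antisense and 1019 sense counts. The antisense level of Zeb2os was 20.9, 25.1 and 23.0 CPM in control, 32.1, 39.8 and 39.4 at 1 h and 20.2, 13.5 and 17.6 at 4 h, while Zeb2 had 522, 608 and 595, then 976, 1069 and 1087, then 1004, 1191 and 1014 CPM. C230091D08Rik, across the ubiquitin ligase gene Ube3a, had 1144 antisense counts and 1 sense count, with 23.5, 24.7 and 20.8 CPM in control and 13.6, 15.6 and 19.8 at 4 h. Bace1, the β-secretase gene, which meets Rnf214 tail to tail, had 244 antisense and 117 sense counts. Of the 10 tested genes of the list, 0, 2, 1 and 0 were called on the sense strand at 1, 4, 12 and 24 h.

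The last comparison asks what a count without strand would show for these genes. On unstranded counts, 18, 37, 25 and 25 members were called at 1, 4, 12 and 24 h of 112 tested, 1 with IL-4 and 2 with IL-13 of 83 (0 to 2 and 0 to 1 when each library in turn was left out), and 7 after LPS in RAW264.7 of 115. The unstranded calls over all genes were 7.13%, 22.3%, 17% and 14.7% at the 4 times, 3.79% and 5.34% with the cytokines and 3.18% in RAW264.7. On sense counts, 6, 14, 14 and 13 of 58 tested members were called at the 4 times, 2 and 1 of 45 with IL-4 and IL-13, and 3 of 75 in RAW264.7. The sense calls over all genes were 7.04%, 22.3%, 17.1% and 14.7%, then 3.86% and 5.39%, then 3.22%. Of the unstranded calls, 14, 26, 17 and 19 were not called on sense counts, and in 11, 23, 15 and 17 of these the sense counts were too few to be tested. Of those without a sense call, 10, 19, 13 and 15 were free-class members.

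Psd shows this with 396 antisense counts and 1 sense count in BMDM. Its unstranded log2 fold change at 4 h was 3.48, the same as on the antisense strand. Ccdc152, with 101 antisense and 2 sense counts, had unstranded values of -1.78 at 1 h and -4.21 at 24 h. Il1bos had an unstranded value of 8.69 at 1 h with 44 sense counts in all of BMDM. Over any IFN-LPS time, 93 members were called on antisense counts, 46 on unstranded counts and 22 on sense counts, and 35 were called on unstranded but not sense counts, 22 of them of the free class. Over all genes tested, 45.3% were called at any time on antisense counts and 30.4% each on unstranded and on sense counts.

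**Figure D5:**
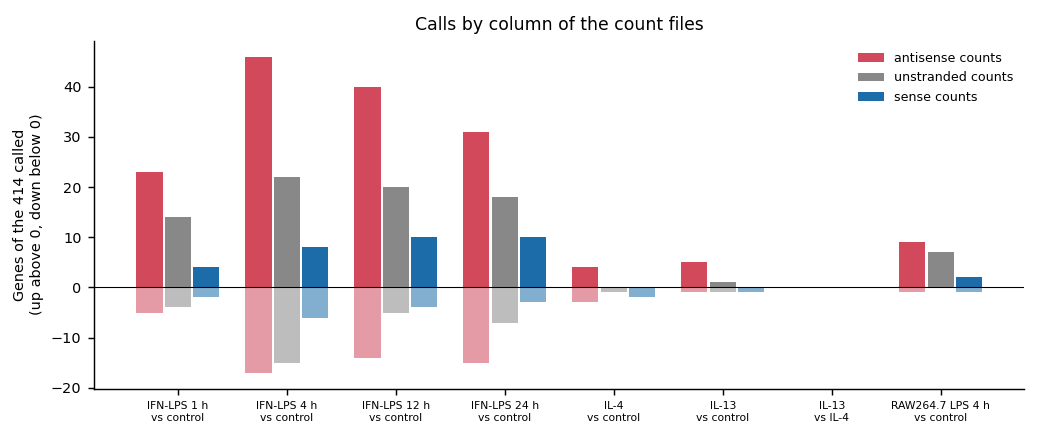
Number of the 414 members called in each comparison on antisense, unstranded and sense counts, rises above 0 and falls below it in a lighter shade. At 4 h there were 63 antisense calls of 266 tested (23.7%), 37 unstranded calls of 112 (33.0%) and 14 sense calls of 58 (24.1%), so antisense calls are the most numerous there but not the most frequent among members tested.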

How the data were processed

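The authors made directional libraries from ribosomal RNA-depleted RNA and, per the labels and the submitters' processing notes, used CASAVA 1.8.2, Trimmomatic 0.33, STAR 2.5.1 and DESeq2 with mm10. The annotation release is not given in the sources used here. The deposited files hold raw counts per gene, as an unstranded count and a count for each strand, without normalization. The strand with the larger total (118.104 times the other) was taken as sense. Rows that name no gene were left out, and reads without a feature were 62.7% to 69.1% of the sense-strand assignments (genes, ambiguous and no feature together).

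Members, lists and tests were chosen with earlier results of these data known. Positions and exons came from GENCODE (mm10), with RefSeq spans for 7 members and no position for 4. Counts were fitted in R 4.3.3 with edgeR 4.0.16 (robust quasi-likelihood, filterByExpr, a mean per group) on the whole table, in 3 families: the IFN-LPS time course with control (15 libraries), IL-4 and IL-13 with control (9) and RAW264.7 (4). Antisense counts were scaled by the sense totals times TMM factors. p-values were adjusted by Benjamini-Hochberg per comparison over all genes tested, and calls needed an adjusted p of at most 0.01 and an absolute log2 fold change of at least 1.5 (IFN-LPS), 0.7 (IL-4, IL-13) or 2 (RAW264.7). CPM are counts per 1000000 normalised sense counts. SE of fitted fold changes were derived from the F statistic of the test and can be too narrow where a group is near 0. Fitted fold changes from groups at 0 depend on the prior count, so at 0 counts a floor of 3 counts over the group was used, and at 1 to 3 counts a ratio with its 95% interval, for counting error only.

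Named members were fixed by rule: the 12 with the most antisense counts, the 3 largest rises and falls per comparison with at least 3 CPM in the higher group and no overlap between the groups, the genes at the edges of the rule, and members opposite the listed genes. Others are named as chosen after their values were seen or as members of a counted set. On simulated antisense counts for IFN-LPS 4 h, 536 genes were tested, 147 of the 200 changed ones among them, and 125 were recovered in the right direction with 0 false calls. The simulation set a log2 fold change of 2 and a dispersion, the spread between libraries beyond counting error, of 0.02. Recovery at smaller changes or a wider spread was not measured. Replicates were compared by chi-square (1.69 to 12.6 per degree of freedom over 23 pairs), and none was a duplicate. Alternatives used DESeq2 1.42.0, the replicate block, other thresholds, scalings and filters, and leaving out each library. Figures were drawn with Python 3.11.15 and matplotlib 3.10.9. The result of 1 of the 12 highest members is not reported here.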

Additional observations from a re-analysis of the deposited data

How the results depend on the processing

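Of the summary results, 379 values stayed on the same side or within 1.5 times under an alternative and 41 moved, and of the values of named genes 611 kept their call, 44 lost it and 0 reversed. With an adjusted p of 0.05 and no fold limit, antisense calls were 67, 131, 133 and 128 at 1, 4, 12 and 24 h, 16 with IL-4, 19 with IL-13 and 46 in RAW264.7, and unstranded calls 37, 60, 51, 44, 6, 4 and 31. With DESeq2, antisense calls with IL-4 were 3, and unstranded calls 0 with IL-4, 0 with IL-13 and 4 in RAW264.7. Without the filter, antisense calls with IL-4 were 3, and unstranded calls 34 at 1 h and 41 at 12 h. Leaving out a library gave 3 to 8 antisense calls with IL-4 (7 with all, 4 without IL-4 replicate 1 or 2 or control replicate 1, 3 without control replicate 3), 6 to 10 in RAW264.7 (10 with all, 6 without LPS replicate 1), and unstranded calls of 0 to 2 (IL-4, 1 with all libraries) and 0 to 1 (IL-13, 2 with all). Antisense calls at 1 h were 29 to 36, all above the 28 with all libraries. The cause of these moves was not tested. The members numbered 284 at a minimum of 120 counts, 357 where antisense had to exceed 2 times sense, 413 on CPM (412 shared) and 393 to 405 without a library. Scaling by TMM of the antisense counts or by totals without Rn45s moved no count of calls by over 1.5 times.

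Replicate numbers did not pair the libraries: deviations of same-numbered libraries correlated at -0.07 to 0.17 in the time course (3 of 30 over 0.1), -0.03 to 0.10 in the cytokine libraries, and -0.01 in RAW264.7. With the replicate block, antisense calls in RAW264.7 were 0 against 10, and the other counts stayed within 1.5 times. Depth is a limit: members near 60 antisense counts have about 3 per library, and 148 of the 414 could not be tested in the time course.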
